A study of Rattus rattus with 18 samples.

Results

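The miR-15 and miR-16 family, which includes miR-195 and miR-497, was examined in the brains of 9 Sprague-Dawley rats through the probes for rno-miR-15b-5p, rno-miR-15b-3p, rno-miR-16-5p, rno-miR-195-5p and rno-miR-497-5p. These 5 were chosen by name, among the 761 rat miRNAs of the array, and all 5 had probes. Of the 761 miRNAs, 532 were above the detection limit on at least 3 arrays and were tested, and the 5 members were among them. Groups of 3 rats were sham-operated, subjected to transient middle cerebral artery occlusion (tMCAO), or labelled as remote limb postconditioning (PostC). In tMCAO a filament closes the artery that supplies much of one hemisphere, here for 100 min, and is then withdrawn so that blood returns. The rats were male, and their age is not given in the sources used here. Sacrifice followed reperfusion by 3 or 24 h, without a statement of which time applies to the arrays. Whether the PostC rats also underwent tMCAO is not stated, so what separates them from the other groups is known only in part. Each rat gave 1 array of the region named core and 1 of the region named peri, 18 arrays in 6 groups. The sample labels give the core as cortex and peri as striatum, the reverse of the study's text, so that only the names core and peri are used here.

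MicroRNAs are short RNAs that guide Argonaute proteins to messenger RNAs, mostly by pairing of their seed, the bases 2 to 8 counted from the 5′ end. Members of this family share a seed, so they are expected to bind overlapping sets of targets, among them mRNAs of cyclins and of the survival protein Bcl-2, and they are known for restraining the cell cycle and for favouring apoptosis. rno-miR-15b and rno-miR-16 are processed from a common precursor within an intron of Smc4, a condensin subunit gene, and a further copy of miR-16 lies beside miR-15a. rno-miR-195 and rno-miR-497 come from another shared precursor. All these miRNAs are made in many tissues, and miR-16 is also abundant in blood cells.

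The targets of the probes show which members can be compared through their seed. They are given 5′ to 3′ as listed for the array, with bases 2 to 8 in capitals.
rno-miR-15b-5p: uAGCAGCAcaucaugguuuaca
rno-miR-16-5p: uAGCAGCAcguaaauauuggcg
rno-miR-195-5p: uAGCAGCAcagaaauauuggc
rno-miR-497-5p: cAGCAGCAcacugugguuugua
rno-miR-15b-3p: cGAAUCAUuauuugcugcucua
rno-miR-15a-5p: uAGCAGCAcauaaugguuu
rno-miR-322-5p: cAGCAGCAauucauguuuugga
The first 4 share the seed, whereas rno-miR-15b-3p, the opposite arm of the miR-15b hairpin, has another one. Among all 761 miRNAs of the array, 6 had these bases 2 to 8, the other two being rno-miR-15a-5p and rno-miR-322-5p, which are shown for comparison. Outside the seed the members diverge, since rno-miR-15b-5p differed from rno-miR-16-5p at 8 of 22 aligned bases and rno-miR-16-5p from rno-miR-497-5p at 11 of 22. Within 2 pairs they hardly do. rno-miR-16-5p and rno-miR-195-5p differed at 2 of 21 bases, and rno-miR-15b-5p and rno-miR-15a-5p at 1 of 19, so that the signals within each pair may be shared.

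The values are normalized log2 intensities, each the mean of the 4 spots of a probe, and they may be compared between arrays but not between probes. rno-miR-16-5p, rno-miR-195-5p and rno-miR-497-5p were above the detection limit on all 18 arrays and rno-miR-15b-5p on 17. rno-miR-15b-3p was above it on 5 arrays and on 0 of the 6 tMCAO arrays, so its values lie mostly within the background. The limit itself ran from 49.1 to 566 units between arrays, so that a lack of detection does not by itself mean a lower signal. For example, rno-miR-15b-3p read 122 units on the tMCAO peri array of rat 2, under its limit of 346. It read 96.6 units on the sham peri array of rat 1, above its limit of 84.9. The sham core array of rat 2 stood apart: a control probe, a-PUC2MM2d, read 32538 units on it and between 72.2 and 829 units on the other 17, and a second one, a2-PUC2MM-20B, 15349 units against 56.1 to 1011. Its correlation across miRNAs with the other two sham core arrays was at most 0.90, compared with 0.98 between those. The PostC core arrays correlated less with one another, rat 3 at no more than 0.87 with the other two and rat 1 at 0.83 with rat 3 and 0.93 with rat 2. The PostC peri array of rat 3 correlated at no more than 0.90 with the other two, compared with 0.98 between those, and it had the highest sums of the red blood cell and vessel lists of all 18 arrays (12.71 and 15.16). It also held the highest PostC peri values of rno-miR-16-5p, rno-miR-195-5p and rno-miR-497-5p. Differences of members that moved by over 1.5 times when 1 rat was left out are given with their value or range without it. Those between PostC and tMCAO in peri are an exception. Brain miRNAs marked the tissue as labelled, as miR-124-3p, miR-9a-5p, miR-128-3p and miR-138-5p were detected on all 18 arrays and miR-219a-5p on 8. In pieces of tissue, fewer cells of a type and less RNA per cell cannot be told apart.

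In core, rno-miR-15b-5p lay above all sham-operated rats after tMCAO and overlapped them in the PostC rats, and rno-miR-16-5p lay under all sham-operated rats in both groups. In peri all members overlapped between the groups. None of the 5 passed an adjusted p of 0.05 in limma (Benjamini-Hochberg over 532 miRNAs) in any of the 13 comparisons made, and none did by the methods' t-test after the same adjustment. For single members, 3 rats against 3 allow no exact permutation p under 0.1. What follows is therefore a description of levels and of their spread, with the fitted differences and their intervals.

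rno-miR-15b-5p showed the highest core values after tMCAO. On the sham core arrays it measured 8.74, 8.57 and 9.51 in rats 1 to 3, on the tMCAO core arrays 9.84, 10.54 and 10.46, and on the PostC core arrays 9.42, 9.89 and 10.35. All tMCAO values lay above all sham values, and the lowest PostC value lay just under the highest sham value. In peri the sham rats had 9.49, 9.33 and 9.19, the tMCAO rats 8.82, 9.25 and 9.00 and the PostC rats 9.11, 9.68 and 8.60, the last of these being the array without detection. The peri groups thus overlapped and the tMCAO values stood slightly lower. By group mean the order was tMCAO core (10.28 ± 0.38, SD, n = 3), PostC core (9.89 ± 0.47), sham peri (9.33 ± 0.15), PostC peri (9.13 ± 0.54), tMCAO peri (9.02 ± 0.21) and sham core (8.94 ± 0.50), and each group overlapped its neighbour in this order. In the authors' normalized table, on a linear scale, sham core had 426 ± 186 units and tMCAO core 1081 ± 234 units, compared with 590 ± 85.0 and 394 ± 100 units in peri.

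The fitted difference of rno-miR-15b-5p between tMCAO and sham in core was 1.34 on the log2 scale (standard error 0.43, 95% confidence interval 0.39 to 2.29), with an unadjusted p of 0.0105 and an adjusted p of 0.125 in limma. With both regions in 1 fit and the rat as a random block it passed the threshold (adjusted p = 0.0305 in limma), and in that fit 46 of 532 miRNAs were called in place of 18. Over the alternatives other than leaving out a rat, the difference lay between 1.06 and 2.05. Without sham rat 2 it was 1.15 (adjusted p = 0.309). In peri the difference was -0.31 (standard error 0.36, adjusted p = 0.692). Median scaling in place of cyclic loess moved the median of all miRNAs by -0.41 in peri, and there rno-miR-15b-5p differed by -1.46 (adjusted p = 0.0361 in limma). Between PostC and sham in core the difference was 0.95 (standard error 0.43, interval -0.0046 to 1.90, adjusted p = 0.291), or 0.71 to 1.18 without PostC rat 3, PostC rat 1 or sham rat 2.

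**Figure D1:**
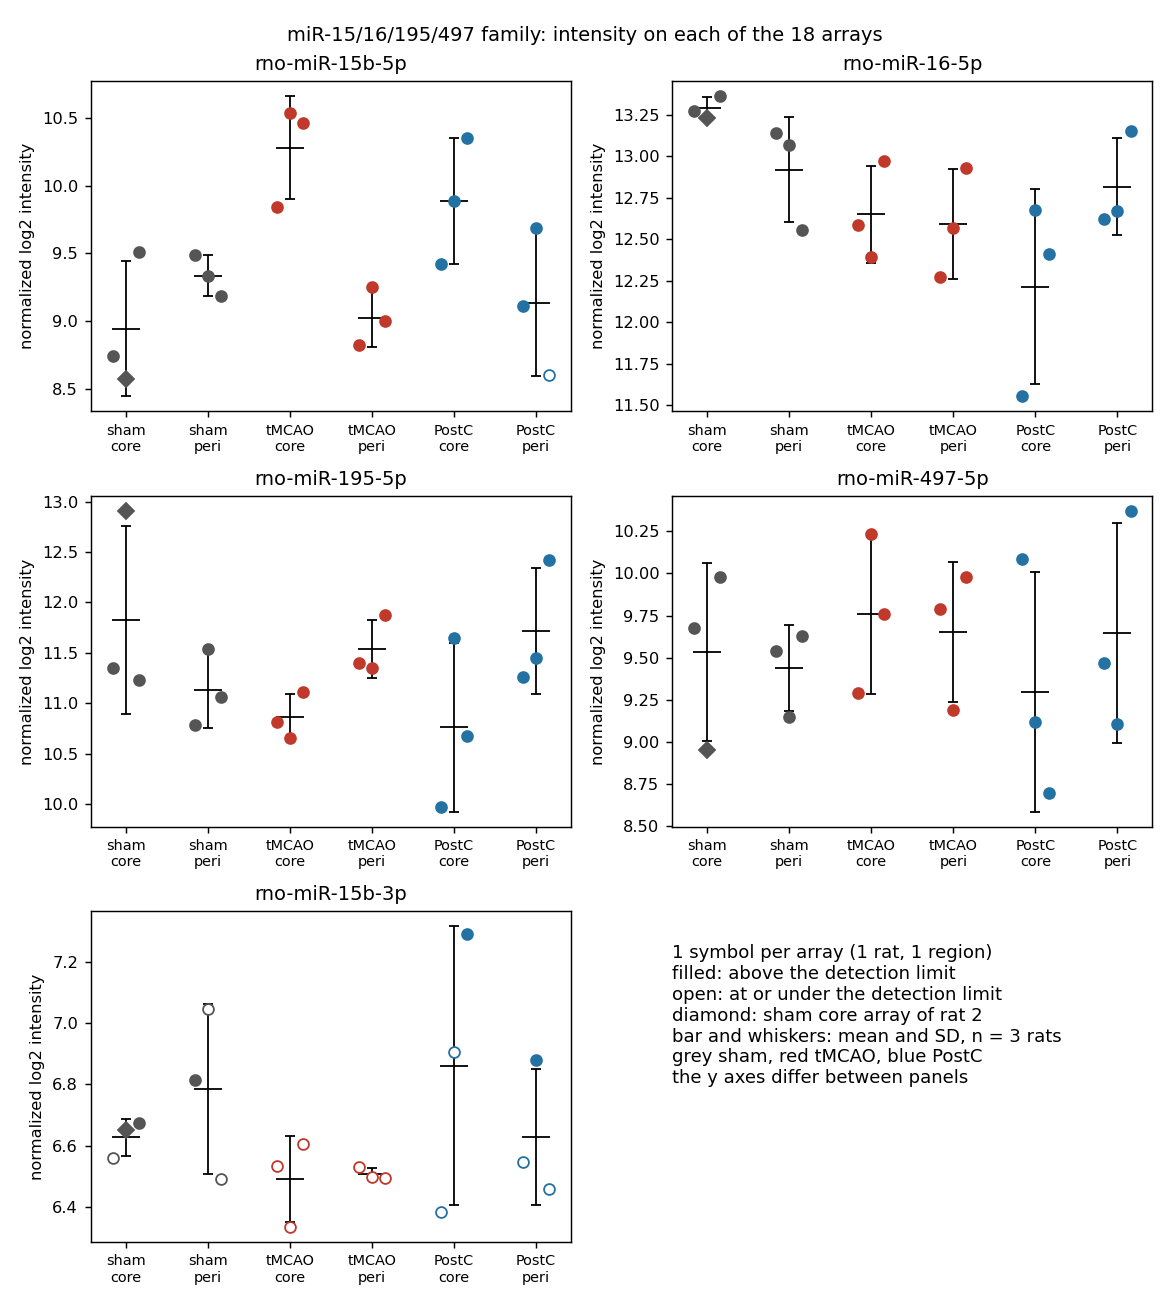
Normalized log2 intensity (y axis, own scale in each panel) of the 5 members on the 18 arrays by group (x axis); each symbol is the array of 1 rat and region, open where not above the detection limit, bars and whiskers are the mean and SD of 3 rats, and the diamond is the sham core array of rat 2. The tMCAO core values of rno-miR-15b-5p, 9.84 to 10.54, lie above the sham core values, and the sham core values of rno-miR-16-5p, 13.23 to 13.36, lie above those of both other core groups.

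rno-miR-16-5p, whose sham core values lay close together, was lower in core in both other groups. Its sham core values were 13.27, 13.23 and 13.36 in rats 1 to 3, compared with 12.59, 12.40 and 12.97 after tMCAO and 11.55, 12.68 and 12.41 in the PostC rats. Neither group reached the lowest sham value. In peri the sham rats had 13.14, 13.07 and 12.55, the tMCAO rats 12.27, 12.57 and 12.93 and the PostC rats 12.62, 12.67 and 13.15, with overlap throughout. The means ran from sham core (13.29 ± 0.07) over sham peri (12.92 ± 0.32), PostC peri (12.82 ± 0.29), tMCAO core (12.65 ± 0.29) and tMCAO peri (12.59 ± 0.33) to PostC core (12.21 ± 0.59). Only sham core and sham peri did not overlap among neighbours in this order. rno-miR-16-5p is among the miRNAs that the study selected on these same arrays for further measurement, so its direction is not independent of that choice.

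The tMCAO and sham core values of rno-miR-16-5p differed by -0.64 (standard error 0.31, interval -1.32 to 0.04, adjusted p = 0.254 in limma). For PostC against sham in core the difference was -1.08 (standard error 0.31, interval -1.76 to -0.39, unadjusted p = 0.00552, adjusted p = 0.130), place 20 of 532 by p. It passed with the rat as a random block over both regions (adjusted p = 0.0488 in limma), a fit in which 32 of 532 miRNAs were called in place of 0, and without PostC rat 1 it was -0.75 (adjusted p = 0.316). In peri the differences were -0.33 for tMCAO (adjusted p = 0.593, -0.51 to -0.17 without any 1 rat) and -0.10 for PostC (adjusted p = 0.991, -0.29 to 0.0047 without any 1 rat). With median scaling the tMCAO difference in peri was -1.18 (adjusted p = 0.0320 in limma). When the core and peri arrays of a rat were averaged, neither group overlapped the sham rats, with -0.48 for tMCAO (standard error 0.23, adjusted p = 0.166) and -0.59 for PostC (standard error 0.23, adjusted p = 0.290), which was -0.38 without PostC rat 1. With median scaling the tMCAO rat means differed by -0.84 and passed (adjusted p = 0.0305 in limma).

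rno-miR-195-5p, close in sequence to rno-miR-16-5p, stood lower in core and higher in peri. The sham core arrays gave 11.36, 12.90 and 11.23, the tMCAO core arrays 10.81, 10.66 and 11.11 and the PostC core arrays 9.98, 11.64 and 10.67. The highest of these, 12.90, came from the sham array that stood apart, and all 3 tMCAO values were under the lowest sham value. In peri the values were 10.79, 11.54 and 11.06 in sham rats, 11.40, 11.35 and 11.87 after tMCAO and 11.26, 11.45 and 12.43 in PostC rats. The core difference between tMCAO and sham was -0.97 (standard error 0.54, interval -2.16 to 0.22, adjusted p = 0.308 in limma) and -0.43 without sham rat 2 (adjusted p = 0.698). The corresponding peri difference was 0.41 (standard error 0.37, adjusted p = 0.612, 0.24 to 0.62 without any 1 rat), and it turned to -0.63 with median scaling (adjusted p = 0.251). For PostC against sham the core difference was -1.06 (adjusted p = 0.337), which became -0.53 without sham rat 2 and -0.67 without PostC rat 1, and the peri difference was 0.58 (adjusted p = 0.991), or 0.23 without PostC rat 3. By mean the order was sham core (11.83 ± 0.93), PostC peri (11.71 ± 0.62), tMCAO peri (11.54 ± 0.29), sham peri (11.13 ± 0.38), tMCAO core (10.86 ± 0.23) and PostC core (10.76 ± 0.84), and all neighbours in it overlapped.

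rno-miR-497-5p, from the same precursor as rno-miR-195-5p, showed no separation of any groups. It measured 9.68, 8.95 and 9.98 in sham core, 9.29, 10.23 and 9.76 in tMCAO core and 10.08, 9.12 and 8.70 in PostC core. The peri values were 9.54, 9.15 and 9.63 in sham rats, 9.79, 9.19 and 9.98 after tMCAO and 9.47, 9.11 and 10.37 in PostC rats. All 6 groups overlapped, and their means lay between 9.30 ± 0.71 in PostC core and 9.76 ± 0.47 in tMCAO core. The tMCAO difference was 0.22 in core (interval -0.86 to 1.31, adjusted p = 0.795 in limma, standard error 0.49) and 0.22 in peri (standard error 0.40, interval -0.65 to 1.08, adjusted p = 0.830), so that a difference of 1 in either region lies within the interval. Its sign in core turned with median scaling (-0.045) and without sham rat 2 (-0.067) or tMCAO rat 2 (-0.012), and in peri with median scaling (-0.96). Without any 1 rat it lay between -0.067 and 0.46 in core and between 0.053 and 0.45 in peri. For PostC in core the difference was -0.24 (standard error 0.49, adjusted p = 0.819), and it lay between -0.63 without PostC rat 1 and 0.065 without PostC rat 3.

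rno-miR-15b-3p, the arm of the miR-15b hairpin with another seed, stayed near background. Its values ran from 6.34 to 7.29 over the 18 arrays, and the 3 core groups overlapped one another, as did the 3 peri groups. Between tMCAO and sham it differed by -0.14 in core (adjusted p = 0.725 in limma, standard error 0.23) and by -0.28 in peri (standard error 0.16, adjusted p = 0.435), and between PostC and sham in core by 0.23 (adjusted p = 0.589), or 0.47 without PostC rat 1 and 0.018 without PostC rat 3. Without any 1 rat the tMCAO values lay between -0.19 and -0.058 in core and between -0.42 and -0.15 in peri. The core value turned to 0.068 with median scaling and to 0.33 with the GC trend removed and was -1.30 with plain background subtraction, and the peri value turned to 0.016 with median scaling. The PostC difference in core was 0.030 with quantile normalization and 0.57 with the GC trend removed. In the authors' table all 18 values of this probe were under the floor of 50 units. With so few arrays above the limit, a difference in this arm was not detectable at this signal.

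**Figure D2:**
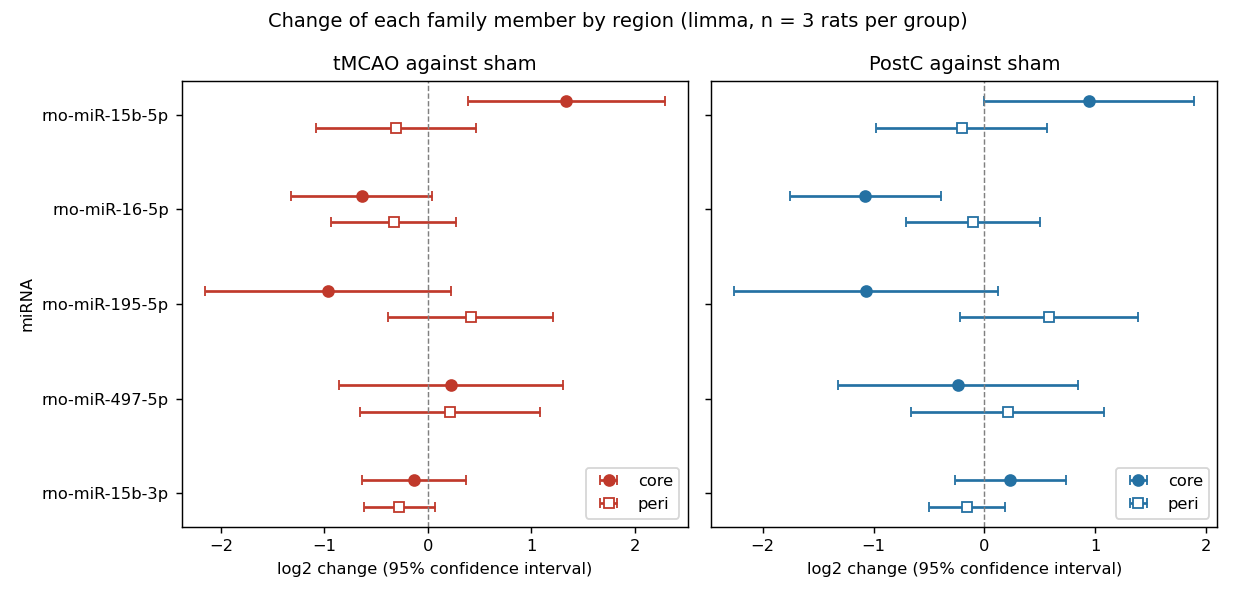
Difference from sham on the log2 scale (x axis) for each member (y axis) after tMCAO (left) and in PostC rats (right), in core (filled circles) and peri (open squares); whiskers are 95% confidence intervals from limma with 3 rats per group. The core intervals that leave out 0 are those of rno-miR-15b-5p after tMCAO (0.39 to 2.29) and of rno-miR-16-5p in PostC rats (-1.76 to -0.39).

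The other miRNAs of the array give the background for these counts. In core, 18 of 532 miRNAs (3.38%) passed the adjusted threshold between tMCAO and sham and 0 of the 5 members did, while 1 member, rno-miR-15b-5p, had an unadjusted p under 0.05 in limma, as had 116 of all miRNAs. The groups did not overlap for 3 members, rno-miR-15b-5p, rno-miR-16-5p and rno-miR-195-5p, and for 218 of 532 miRNAs (41%). The median difference was -0.14 over the members and -0.05 over all. The methods' t-test called 3 of the 532 in core. The count of 18 was 0 without sham rat 1 or sham rat 3, 4 without sham rat 2, 3 without tMCAO rat 1 and 1 without tMCAO rat 2. In peri, 3 miRNAs (0.564%) passed, none a member, and 168 (31.6%) did not overlap, again none a member. The 3 were 0 without any 1 of the sham rats or without tMCAO rat 1 or 2, 9 without tMCAO rat 3, and, through the shared estimate of the spread, 5 without PostC rat 2 and 36 without PostC rat 3. In peri the methods' t-test called 0, and the median was -0.28 over the members and -0.01 over all.

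For PostC against sham in core no miRNA passed the adjusted threshold in limma (0%) and none by the methods' t-test, although 90 were under 0.05 in limma before adjustment. Without PostC rat 2 it was 8. 1 member, rno-miR-16-5p, did not overlap, as did 117 miRNAs (22%). In peri 0 of 532 passed as well (0%), with 14 under 0.05 before adjustment and 0 by the methods' t-test after it, and 27 (5.08%) did not overlap, none of them a member. PostC and tMCAO, the pair that might separate postconditioning from occlusion, gave 12 miRNAs in core (2.26%), none a member, and no overlap in 99 (18.6%), again none a member. The methods' t-test called 0 of these 532, and the 12 were 3 without tMCAO rat 1 or 2, 4 without PostC rat 3 or sham rat 1, 5 without sham rat 3, 21 without sham rat 2 and 30 with the rat as a random block. There rno-miR-15b-5p differed by -0.39 (standard error 0.43, interval -1.34 to 0.56, adjusted p = 0.762) and rno-miR-16-5p by -0.44 (standard error 0.31, interval -1.12 to 0.25, adjusted p = 0.611). Both were weakest without PostC rat 1, with -0.16 and -0.11, and reached -0.62 without PostC rat 3 and -0.67 without PostC rat 2. In peri 0 passed in limma (0%) or by the methods' t-test, 31 being under 0.05 in limma before adjustment and 59 passing without PostC rat 3, and 42 (7.89%) did not overlap. The members differed there by -0.01 to 0.23, each overlapping. The PostC peri array of rat 3, which stood apart, held the highest PostC values of rno-miR-16-5p (13.15), rno-miR-195-5p (12.43) and rno-miR-497-5p (10.37). Without it the PostC means of these members would be lower, so that neither the size nor the sign of such small differences is settled. These comparisons share their sham or tMCAO rats.

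With both arrays of a rat averaged, 63 of 532 miRNAs (11.8%) passed between tMCAO and sham and 218 (41%) did not overlap. The methods' t-test called 23, and the 63 were 8 without tMCAO rat 2, 28 without tMCAO rat 1, 37 without sham rat 2 and 96 without tMCAO rat 3. Of the members 0 passed and 2, rno-miR-16-5p and rno-miR-15b-3p, did not overlap. rno-miR-15b-3p was above the detection limit on no tMCAO array, so that its separation lies within the background. rno-miR-15b-5p, whose core and peri values pointed opposite ways, differed by 0.51 in these means (standard error 0.25, adjusted p = 0.189), and by -0.20 with median scaling. Between PostC and sham 1 miRNA passed (0.188%), or 0 without any 1 PostC rat, sham rat 1 or 3 or tMCAO rat 2 and 3 without sham rat 2, and 97 (18.2%) did not overlap, with rno-miR-16-5p the only member among the latter. Between PostC and tMCAO 30 passed (5.64%), none a member, and 9 did without tMCAO rat 2, 14 without tMCAO rat 1, 15 without PostC rat 2 and 46 without sham rat 2. The methods' t-test called 6 between PostC and tMCAO and 0 between PostC and sham.

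Both regions came from the same rats, so that core and peri could also be compared within each animal. rno-miR-15b-5p was lower in core than in peri by 0.74 and 0.76 in sham rats 1 and 2 and higher by 0.32 in rat 3. After tMCAO core exceeded peri by 1.02, 1.29 and 1.46 in the 3 rats, and in the PostC rats by 0.31, 0.20 and 1.75. The mean difference was -0.39 in sham (standard error 0.38, adjusted p = 0.972 in limma, or -0.21 without sham rat 2 and -0.75 without sham rat 3), 1.26 after tMCAO (standard error 0.38, unadjusted p = 0.00866, adjusted p = 0.275) and 0.76 in PostC (adjusted p = 0.498, or 0.26 without PostC rat 3). With plain background subtraction the PostC mean was 1.15.

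rno-miR-195-5p ran the other way. Core exceeded peri by 0.57, 1.37 and 0.17 in the sham rats and was under it by 0.59, 0.69 and 0.76 after tMCAO, with no overlap between these groups. In the PostC rats the differences were -1.28, 0.19 and -1.75. The means were 0.70 in sham (standard error 0.36, adjusted p = 0.882, or 0.37 without sham rat 2), -0.68 after tMCAO (adjusted p = 0.541) and -0.95 in PostC (adjusted p = 0.425). The tMCAO mean turned to 0.025 with median scaling, and the PostC mean was -0.55 without PostC rat 3 (adjusted p = 0.418). Without PostC rat 2 it was -1.52 and passed (adjusted p = 0.0377 in limma), a setting in which 18 of 532 miRNAs were called. For rno-miR-16-5p core was above peri in all 3 sham rats (mean 0.37, adjusted p = 0.972, or 0.15 without sham rat 3) and the mean was -0.60 in PostC (adjusted p = 0.440), or -0.37 without PostC rat 1 and -0.91 without PostC rat 2.

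The tMCAO difference in core minus that in peri was 1.65 for rno-miR-15b-5p (standard error 0.53, interval 0.44 to 2.85, unadjusted p = 0.0127, adjusted p = 0.425 in limma) and -1.38 for rno-miR-195-5p (standard error 0.51, interval -2.53 to -0.23, unadjusted p = 0.0236, adjusted p = 0.425). Neither passed, and neither did any of the 532 miRNAs (0%), of which 46 were under 0.05 in limma before adjustment and 0 passed by the methods' t-test. For both members this quantity separated all 3 tMCAO rats from all 3 sham rats, as was so for 154 miRNAs (28.9%). Without sham rat 2 the values were 1.46 and -1.05, and with median scaling 2.52 and -0.38. rno-miR-16-5p gave -0.31 (adjusted p = 0.876, -0.44 to -0.091 without any 1 rat, the latter without sham rat 3), which turned to 0.68 with median scaling. Within the groups, core against peri gave 0 of 532 in sham (0%, with 29 under 0.05 before adjustment and 0 by the methods' t-test), 5 after tMCAO (0.94%, or 0 without any 1 tMCAO or sham rat or PostC rat 1 and by the methods' t-test, and 9 without PostC rat 3) and 0 in PostC (0%, with 52 under 0.05 before adjustment and 1 by the methods' t-test), none of them a member. The difference had 1 sign in all 3 rats for 224 miRNAs in sham (42.1%), 232 after tMCAO (43.6%) and 113 in PostC (21.2%), among them 2, 2 and 1 members.

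**Figure D3:**
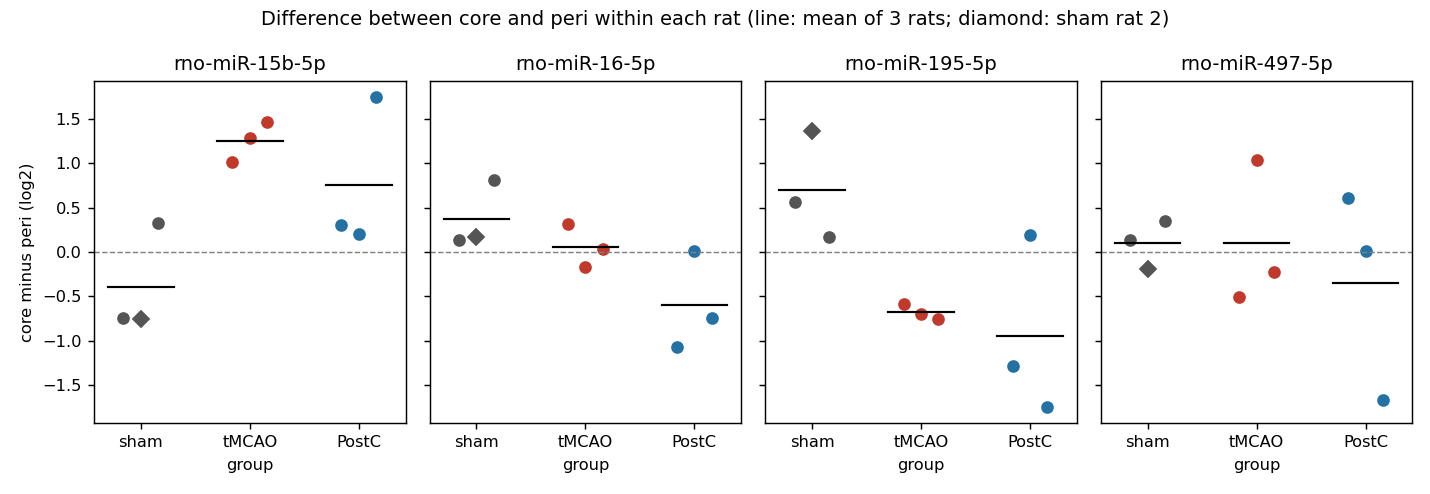
Core minus peri of each rat on the log2 scale (y axis) by group (x axis) for the 4 members that share a seed; each symbol is 1 rat, lines are means of 3, and the diamond is sham rat 2. After tMCAO all 3 rats lie above 0 for rno-miR-15b-5p (1.02 to 1.46) and under 0 for rno-miR-195-5p (-0.76 to -0.59).

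A ratio of members on the same array is free of any factor common to that array, though not of intensity-dependent normalization. The log2 ratio of rno-miR-15b-5p to rno-miR-16-5p, a pair picked after its values had been seen, was higher in tMCAO core than in sham core by 1.98, and in PostC core by 2.02. In both cases the 3 rats did not overlap the sham rats (p = 0.1 in an exact permutation test, two-sided, the least that 3 against 3 allow). With other backgrounds and scalings the tMCAO difference lay between 1.56 and 2.89, and without any 1 rat between 1.72 and 2.23. In peri the ratio differed from sham by 0.02 for tMCAO and -0.10 for PostC (exact permutation p = 0.9 for each), and without any 1 rat by -0.10 to 0.20 and by -0.45 to 0.34. As the pair was picked for its values, these ratios restate them and are no further evidence.

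The miRNAs related by seed or hairpin were taken from a list of 9, of which 7 were tested and rno-miR-497-3p and rno-miR-503-5p were not (0 and 1 arrays above the limit). None of the 7 passed the adjusted threshold between tMCAO and sham, in core or in peri. rno-miR-15a-5p, 1 base from rno-miR-15b-5p over the aligned stretch, had the widest range of the 6 miRNAs with the seed. It measured 10.60, 12.48 and 10.14 in sham core, 8.66, 7.41 and 9.06 in tMCAO core and 7.73, 9.40 and 10.16 in PostC core. All 3 tMCAO values were under the lowest sham value, and tMCAO rat 2 and PostC rat 1 were not above the detection limit. The tMCAO difference in core was -2.70 (unadjusted p = 0.00597, adjusted p = 0.104 in limma, standard error 0.78), which passed with the rat as a random block (adjusted p = 0.0267 in limma) and was -2.00 without sham rat 2 (adjusted p = 0.287). For PostC in core it was -1.98 (adjusted p = 0.262), or -1.28 without sham rat 2 and -1.30 without PostC rat 1, and -3.47 with plain background subtraction. rno-miR-322-5p had 10.21, 11.52 and 9.75 in sham core and 9.43, 7.66 and 9.13 in tMCAO core, a difference of -1.75 (standard error 0.67, adjusted p = 0.166), which was -1.24 without sham rat 2. For PostC in core it was -1.56 (adjusted p = 0.283), or -1.02 without PostC rat 1 and -3.04 with plain background subtraction. In peri the tMCAO and sham values of both overlapped (adjusted p = 0.747 and 0.976).

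The tMCAO difference in core minus that in peri was -2.33 for rno-miR-15a-5p (standard error 0.79, adjusted p = 0.425), or -1.42 with median scaling. Of the opposite arms on the list, rno-miR-15a-3p was higher in tMCAO core (7.18 to 7.90) than in sham core (6.55 to 6.93) without overlap, by 0.63 (standard error 0.42, adjusted p = 0.373 in limma, 0.39 to 0.75 without any 1 rat), opposite in sign to rno-miR-15a-5p, and it was above the limit on 1 of these tMCAO arrays. rno-miR-16-3p differed by -0.46 in peri after tMCAO without overlap (standard error 0.20, adjusted p = 0.271, or -1.64 with plain background subtraction), and it was above the limit on 0 of the 3 tMCAO peri arrays.

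**Figure D4:**
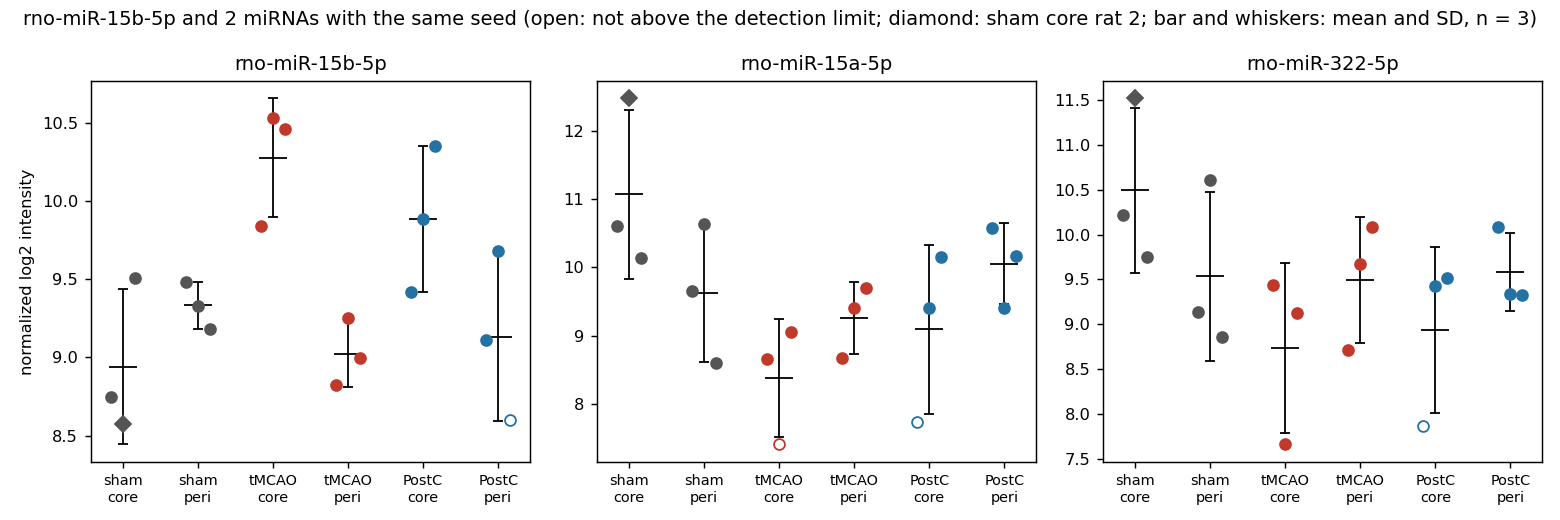
Normalized log2 intensity (y axis, own scale in each panel) of rno-miR-15b-5p, rno-miR-15a-5p and rno-miR-322-5p by group (x axis); each symbol is 1 array, open where not above the detection limit, bars and whiskers are the mean and SD of 3 rats, and the diamond is sham core rat 2. In tMCAO core rno-miR-15b-5p lies above its sham core values, whereas rno-miR-15a-5p (7.41 to 9.06) and rno-miR-322-5p (7.66 to 9.43) lie under theirs.

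Over the 18 arrays, rno-miR-16-5p varied with rno-miR-195-5p (Pearson r = 0.63, Spearman rho = 0.53) and with rno-miR-15a-5p (r = 0.70), and rno-miR-15b-5p varied inversely with rno-miR-195-5p (r = -0.60, or -0.52 without sham core rat 2). rno-miR-195-5p and rno-miR-497-5p, made from a common precursor, gave r = -0.12, or 0.09 without sham core rat 2. rno-miR-15b-5p and rno-miR-15b-3p, arms of 1 hairpin, gave r = 0.30, and rno-miR-15a-5p and rno-miR-322-5p r = 0.94. These values are a description, since the arrays are pairs from 9 rats, share their normalization and include the group differences. Among 527 other miRNAs tested, those most correlated with rno-miR-15b-5p were miR-23a-3p (r = 0.86), miR-150-5p (r = 0.85) and miR-155-5p (r = 0.80, above the limit on 3 arrays). For rno-miR-16-5p they were miR-409a-5p (r = 0.91), miR-101a-3p (r = 0.87) and miR-411-5p (r = 0.86), for rno-miR-195-5p miR-20a-5p (r = 0.91), miR-582-5p (r = 0.90) and miR-30a-5p (r = 0.86), and for rno-miR-497-5p miR-29c-5p (r = 0.80), miR-329-5p (r = 0.78) and miR-324-5p (r = 0.77). miR-150-5p, miR-101a-3p and miR-30a-5p are, like rno-miR-16-5p, among those the study selected on these arrays.

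Some miRNAs known from white blood cells stood higher in the same core arrays as rno-miR-15b-5p. The summed level of 6 such miRNAs (miR-142-3p, miR-142-5p, miR-223-3p, miR-155-5p, miR-146a-5p and miR-150-5p) was 11.69 to 11.98 on the log2 scale in sham core, 12.89 to 13.59 in tMCAO core and 12.54 to 13.03 in PostC core, and 11.59 to 12.20 over the 9 peri arrays. Of the 5 tested, 4 were higher and 1 was lower in tMCAO core than in sham core. The adjusted threshold was passed by 2 of the 5 and by 18 of all 532 miRNAs (3.38%). miR-150-5p was among the 2 (1.55, adjusted p = 0.0318 in limma). miR-223-3p differed by 1.35 and miR-146a-5p by 0.96. miR-155-5p differed by 1.56, but it was above the limit on 2 tMCAO core arrays and 1 PostC core array and on no others, and so was tested only through the groups where it was high. The sum was carried mostly by miR-150-5p. The defining miR-142-3p and miR-142-5p had the opposite sign, with -0.43 (not tested) and -0.46 (adjusted p = 0.401). Of these, miR-142-3p was above the limit on 1 of the 18 arrays and miR-142-5p on 5. miR-223-3p was above it on 4, whereas miR-146a-5p and miR-150-5p were so on all. The sum correlated with rno-miR-15b-5p at r = 0.84 (Spearman rho = 0.75, 18 arrays of 9 rats), with rno-miR-16-5p at r = -0.55 and with rno-miR-195-5p at r = -0.58. The part of these cells in the values was not tested.

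The red blood cell list was summed over 4 miRNAs, of which miR-144-3p and miR-144-5p were above the limit on 0 arrays, miR-451-5p on 18 and miR-486 on 9. Its level was 11.29 to 12.09 in sham core, 11.57 to 12.06 in tMCAO core and 10.62 to 10.87 in PostC core, so that it overlapped between sham and tMCAO, while in PostC core both it and rno-miR-16-5p were under sham. The sum was carried by miR-451-5p, which differed by -1.22 between PostC and sham in core, whereas miR-486, the other one tested, differed by 1.00. Between tMCAO and sham in core miR-451-5p differed by -0.01 and miR-486 by 1.91. miR-486 measured 8.60 to 9.42 in tMCAO core and 6.71 to 7.44 in sham core, without overlap, though neither miRNA passed the adjusted threshold. The part of red blood cells in the values was not tested. The vessel list of 4 lay between 14.15 and 14.39 in sham core and between 13.79 and 14.20 in tMCAO core, which overlapped. In PostC core it lay between 13.89 and 14.14, the highest value being only just under the lowest of sham core. Over the 18 arrays it correlated with rno-miR-16-5p at r = 0.41 (Spearman rho = 0.62), and its part in the values was not tested. The members of this list did not run together, as miR-126a-3p had means of 13.39 in sham core and 12.54 in PostC core and miR-145-5p of 12.36 and 12.92. In tMCAO core miR-126a-3p measured 11.83 to 12.83, under its sham core values of 13.01 to 13.86, and miR-145-5p had a mean of 12.77. Of the 4 vessel miRNAs, 2 were higher and 2 lower there, and 0 passed the adjusted threshold. The brain list of 5 lay between 16.13 and 16.16 in sham core, between 15.87 and 16.01 in tMCAO core and between 15.89 and 16.26 in PostC core. There too the members differed, since in tMCAO core miR-9a-5p had a mean of 12.47 against 14.36 in sham core and miR-128-3p one of 14.82 against 14.48. miR-219a-5p had 6.93 ± 0.07 in tMCAO core, with 0 arrays above the limit, against 9.21 ± 1.68 in sham core, with 3. Of the 5 brain miRNAs, 2 were higher and 3 lower in tMCAO core, and 0 passed the adjusted threshold.

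**Figure D5:**
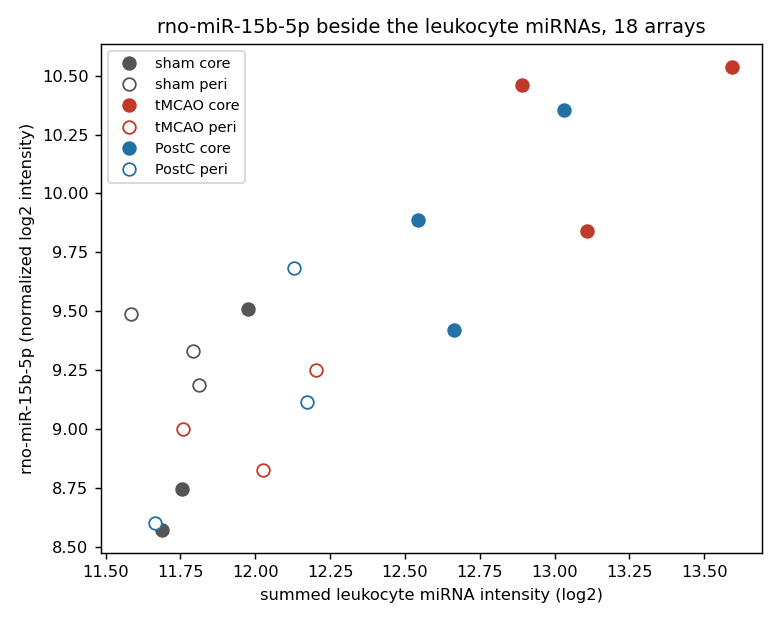
rno-miR-15b-5p (y axis, normalized log2 intensity) against the summed intensity of 6 white blood cell miRNAs (x axis, log2) on the 18 arrays, filled for core and open for peri. The 6 tMCAO and PostC core arrays lie at 12.54 or higher on the x axis, to the right of all sham and peri arrays.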

How the data were processed

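RNA (2 ug per sample) from core and peri of 9 rats, 3 per group, was hybridised to 18 one-colour uParaflo arrays. The deposited spot files hold raw median intensity (3968 spots, 3044 of them for 761 miRNAs at 4 spots each, no background subtraction). The deposited table holds the authors' background-subtracted, LOWESS-normalized linear intensity for 810 probes and served as an alternative. Its further processing is not given in the sources used here. The labels give Rattus rattus and a miRNeasy kit, the study's text Sprague-Dawley rats and Trizol.

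Spot intensity was corrected with normexp (offset 50), taken to log2 and normalized by cyclic loess over the 18 arrays with the 924 control spots at weight 0, and the 4 spots were averaged. A probe was detected where its median spot exceeded the median plus 3 median absolute deviations of 612 empty spots, and tested if detected on at least 3 arrays (532 of 761). Median miRNA spots ranged from 49.1 to 261 units and detected miRNAs from 188 to 605 per array, and the number of arrays limits the precision. limma 3.58.1 (R 4.3.3, eBayes with trend) was fitted across all 532 with Benjamini-Hochberg adjustment at 0.05. Within-rat comparisons used the difference or the mean of core and peri. The sources used here do not say which rats were operated or hybridised together, and p-values measure the spread between these rats. The methods' t-test was run on the same values. Ratios were compared by exact permutation tests. Fits were tested on simulated data. Figures were drawn with matplotlib 3.10.9.

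The members and lists were chosen with earlier results of these data known. The text names the members, the miRNAs related by seed or hairpin, the marker lists and the 3 miRNAs most correlated with each detected member. Sequences are those of the array files. Tried as alternatives were other backgrounds, scalings, filters, the deposited table, a GC correction, blocks and leaving out each rat (22 settings).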

Additional observations from a re-analysis of the deposited data

How the results depend on the processing

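Of 40 differences with a test, 30 kept their sign under every alternative run, and 829 of 850 alternative values had the same sign and side of the threshold. Another 7 passed the threshold and 14 had the other sign. The cause of these was not tested. Part of the 850 could not change the sign. A change of filter, variance trend, block or test leaves the difference itself as it was, as does leaving out a rat of a group not compared. The count is therefore no measure of robustness. With both regions in 1 fit and the rat as a random block, 1 member passed between tMCAO and sham in core (rno-miR-15b-5p) and 1 between PostC and sham in core (rno-miR-16-5p), in place of 0. With median scaling, 2 members passed between tMCAO and sham in peri and 1 in the rat means. Leaving out each rat, between 0 and 1 member passed for core against peri in PostC, the 1 being rno-miR-195-5p without PostC rat 2. Median scaling also turned the sign between tMCAO and sham of rno-miR-15b-3p (0.068) and rno-miR-497-5p (-0.045) in core, of rno-miR-15b-3p (0.016), rno-miR-195-5p (-0.63) and rno-miR-497-5p (-0.96) in peri and of rno-miR-15b-5p in rat means (-0.20), that of rno-miR-195-5p for core against peri in tMCAO (0.025), and that of rno-miR-16-5p for the tMCAO difference in core minus that in peri (0.68). It shifted the median of all miRNAs by -0.41 in peri, where 17 were called higher and 111 lower in place of 3 and 0, and by -0.19 in rat means, where 26 were higher and 104 lower in place of 24 and 39, and by up to 0.29 in the other comparisons. Removing the GC trend turned rno-miR-15b-3p in tMCAO core (0.33), and plain subtraction turned rno-miR-497-5p in PostC core (0.16). With the same sign, plain subtraction gave 2.05 for rno-miR-15b-5p and 0.69 for rno-miR-497-5p in tMCAO core, 1.48 for rno-miR-15b-5p in PostC core, 1.33 for rno-miR-15a-3p in tMCAO core, 0.53 for rno-miR-497-5p in tMCAO peri and 0.85 for rno-miR-15b-5p in tMCAO rat means. Median scaling gave 0.050 for rno-miR-195-5p and -0.54 for rno-miR-16-5p between PostC and sham in peri, and for core against peri in sham -0.71 for rno-miR-15b-5p, 0.12 for rno-miR-16-5p and 0.40 for rno-miR-195-5p. Leaving out each rat, rno-miR-497-5p ranged from -0.067 to 0.46 in tMCAO core and from -0.63 to 0.065 in PostC core, turning without sham rat 2 or tMCAO rat 2 and without PostC rat 3, and rno-miR-16-5p from -0.29 to 0.0047 between PostC and sham in peri, turning without sham rat 1.

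Over all miRNAs the number called between tMCAO and sham lay between 0 and 46 for core and between 0 and 128 for peri, from 0 to 32 between PostC and sham in core, and, between PostC and tMCAO, between 0 and 30 for core and between 0 and 59 for peri. In rat means they ranged from 8 to 130 between tMCAO and sham and from 3 to 46 between PostC and tMCAO. With the replicate number as a block, rno-miR-15b-5p had an adjusted p of 0.151 and rno-miR-16-5p of 0.302 in limma between tMCAO and sham in core, no member's call changed, and 3 miRNAs were called in core in place of 18, 7 in peri in place of 3. Same-numbered samples correlated between -0.45 and 0.44. With so few rats this cannot show whether they were operated or hybridised together. Detection on all 18 arrays left rno-miR-15b-5p and rno-miR-15b-3p untested, and in the deposited table rno-miR-15b-3p was at the floor on all 18 arrays, so that its 3 differences have no value there.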
